A study of Rattus norvegicus with 15 samples.

Results

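Integrins and laminins were followed in the livers of 3 groups of rats: untreated controls, rats made cirrhotic with inhaled CCl4, and cirrhotic rats that were given eplerenone as well. The 37 members were every protein coding gene of the deposited count table whose symbol starts with Itga, with Itgb and a digit, or with Lama, Lamb or Lamc and a digit, out of 32623 genes. They comprise 24 integrin subunits, 10 laminin chains and 3 genes whose symbols fit the pattern although they encode proteins that bind to an integrin tail (Itgb1bp1, Itgb1bp2 and Itgb3bp). Of the 37, 31 passed the filter on low counts and were tested among 14417 genes. All rats were male Wistar rats. The cirrhosis group inhaled CCl4, a hepatotoxic solvent, over 12 weeks with phenobarbital at 0.35 g/L in the drinking water. The cirrhosis & eplerenone group had the same exposure and took eplerenone, a blocker of the mineralocorticoid receptor, by mouth at 100 mg/kg from week 8 to week 12. Control rats received none of these agents, so CCl4 and phenobarbital cannot be told apart in any comparison with control. Livers were removed 7 to 10 days after the last CCl4. The rats sequenced were, as the study states, a subset picked by how well cirrhosis induction and/or eplerenone treatment had succeeded, which limits what each group stands for. The values come from 4 control, 5 cirrhosis and 5 cirrhosis & eplerenone livers, and control replicate 1 was not analysed here.

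Integrins are heterodimers of an α and a β subunit that span the cell membrane and tie the actin or keratin cytoskeleton to the extracellular matrix or to another cell. Laminins are heterotrimers of an α, a β and a γ chain and form, with collagen IV and nidogen, the basement membranes under epithelia, endothelia and around muscle cells. The healthy hepatic sinusoid lacks a complete basement membrane, and its deposition there, called capillarisation, together with the growth of bile duct-like epithelium, is a known feature of liver fibrosis. Some integrins are restricted to leukocytes, others to epithelia, and several are found on stellate cells, endothelium and many further cell types.

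Counted reads per liver ranged from 16157491 to 21574767, and expression is given as FPM, the counted reads of a gene per 1000000 reads of the library size after TMM scaling. A count of 3 corresponded to 0.121 to 0.191 FPM. The summed level of 6 hepatocyte markers was 71240 FPM or more in every liver, with no marker at 0 in any of them. Alb made up most of this sum, at a mean of 122800 FPM in controls and 79390 FPM in cirrhosis. On the first principal component of the 500 most variable genes, which held 66.6% of their variance, controls lay at 44.3 to 50.6 and cirrhosis replicates 1 to 4 at -47.7 to -38.0. Cirrhosis replicate 5 lay apart from them at 13, and cirrhosis & eplerenone replicate 3 lay at -42.6, among the cirrhosis samples, while its 4 group mates lay between -18.5 and 26.8. These 2 livers recur below, and where leaving out both changed a call of a named member, the value without them is given. The animal labels start with 13 or 16 in controls and with 15 or 20 in CCl4-treated rats. What these prefixes stand for is not given in the sources used here, and a batch along these lines and CCl4 cannot be told apart.

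More members were higher than lower in cirrhosis. Of the 31 tested, 15 passed an FDR of 0.05 between cirrhosis and control, 13 of them higher and 2 lower in cirrhosis, where FDR is the p of edgeR's quasi-likelihood test after Benjamini-Hochberg adjustment over all genes tested. Over all 14417 genes, 20.2% passed, 13.4% higher and 6.71% lower. The median log2FC of the members was 0.74, beside -0.01 for all genes. DESeq2 called 18 of the 31, beside 27.8% of all genes, and both tools together called 15, beside 20.1%. The values of cirrhosis and control did not overlap in 13 of the 31, beside 20.2% of all genes. Between cirrhosis & eplerenone and control 8 members passed, all of them higher, beside 5.22% of all genes in either direction and 4.33% higher. DESeq2 called 10 in this comparison, beside 10.6%, both tools together 8, beside 5.2%, and 10 members did not overlap, beside 10.9%. Between cirrhosis & eplerenone and cirrhosis no member passed, beside 0.0139% of all genes. Among the 13 members that rose in cirrhosis were Itga8, Itgb6, Itgax, Lama5, Itgb4, Lamb1, Itgb7, Itga3, Itgb3bp, Itga6, Lamb2 and Itgb1, and the 2 that fell were Itgb3 and Itga1. The plot of log2FC by functional group shows that the epithelial integrins and Lama5, Lamb1 and Lamb2 lie to the right of 0 in cirrhosis and that stromal integrins lie on both sides. In bulk liver RNA, a change in the number of cells of a type and a change in the RNA per cell cannot be told apart.

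**Figure D1:**
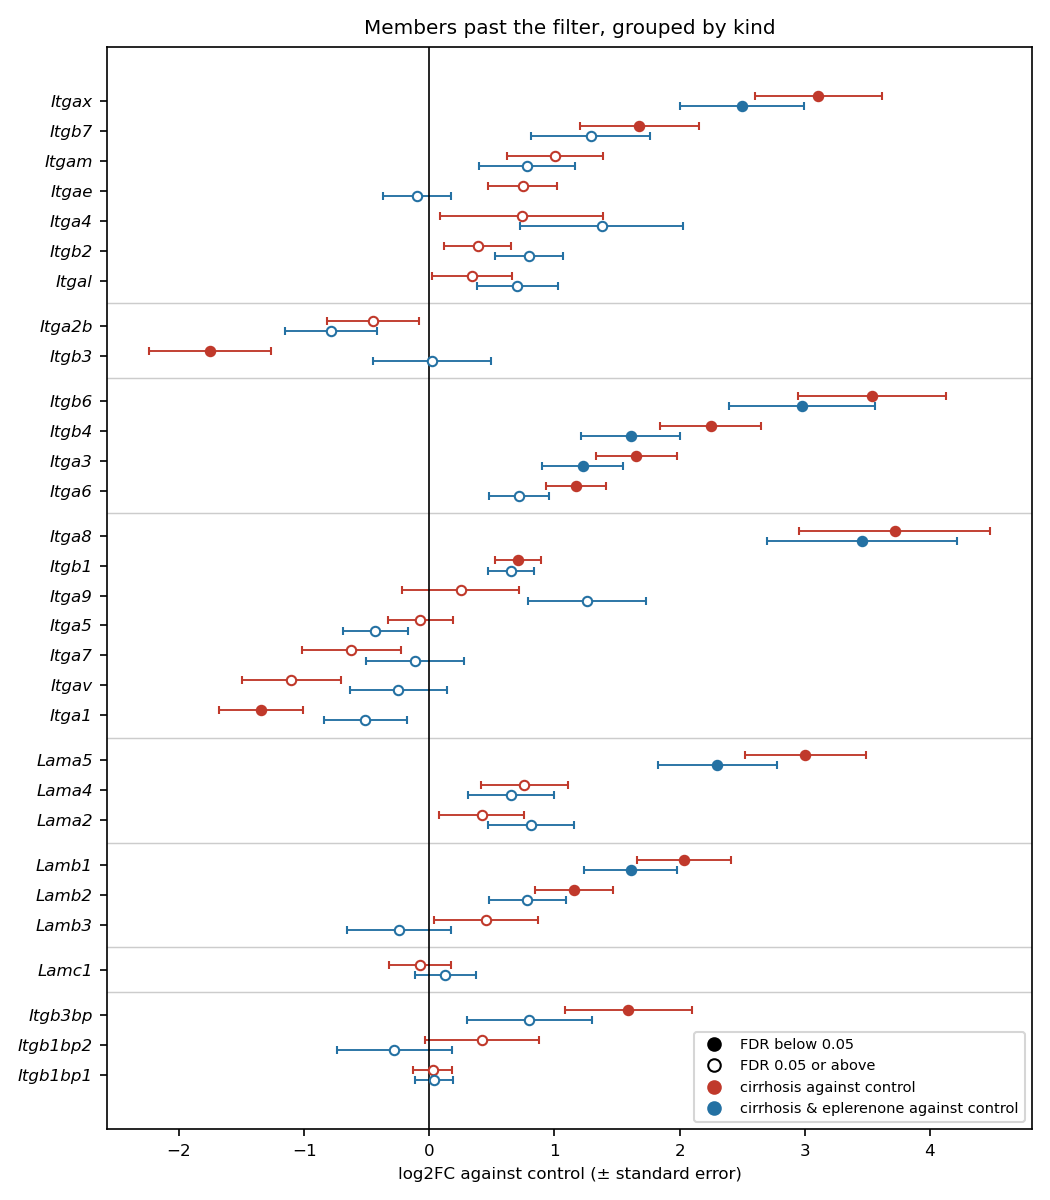
The x axis gives log2FC against control with its standard error (bars) for members past the filter, in red for cirrhosis and in blue for cirrhosis & eplerenone, and filled points passed an FDR of 0.05. From top to bottom the blocks are leukocyte, β3, epithelial and stromal integrins, laminin α, β and γ chains and integrin-binding proteins. Itga8, Itgb6, Itgax and Lama5 have the largest log2FC in cirrhosis, from 3.01 to 3.72, and Itgb3 has the lowest at -1.75.

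The promoters of 6 members called in cirrhosis are shown next, because several of these members rose together. RefSeq sequence of the GRCr8 assembly was used, whereas the reads had been counted on rn6. A promoter was found for 29 of the 37 members, and none for Itgb3, which fell most. The motifs searched, on both strands, were the AP-1 site TGANTCA, the TEAD site GGAATG, the PU.1 site GAGGAA and the Sp1 site GGGCGG. They and the genes shown were chosen after the values had been seen. Each line runs 5′ to 3′ on the strand of the gene over the 250 bases before its start, and capitals mark a motif match.
Itgb6: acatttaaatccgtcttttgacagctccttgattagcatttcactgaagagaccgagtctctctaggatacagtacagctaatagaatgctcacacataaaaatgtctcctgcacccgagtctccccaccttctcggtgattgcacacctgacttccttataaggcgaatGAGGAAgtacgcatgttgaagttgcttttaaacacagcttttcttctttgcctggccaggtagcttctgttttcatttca
Itgax: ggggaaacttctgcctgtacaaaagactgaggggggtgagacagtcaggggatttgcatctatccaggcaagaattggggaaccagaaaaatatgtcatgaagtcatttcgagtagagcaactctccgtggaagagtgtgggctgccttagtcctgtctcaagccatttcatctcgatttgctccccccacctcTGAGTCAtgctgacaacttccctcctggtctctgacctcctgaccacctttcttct
Itga8: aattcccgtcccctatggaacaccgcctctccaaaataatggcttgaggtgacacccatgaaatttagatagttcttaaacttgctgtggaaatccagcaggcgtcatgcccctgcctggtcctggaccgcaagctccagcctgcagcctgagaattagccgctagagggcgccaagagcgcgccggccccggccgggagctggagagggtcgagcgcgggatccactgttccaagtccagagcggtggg
Lama5: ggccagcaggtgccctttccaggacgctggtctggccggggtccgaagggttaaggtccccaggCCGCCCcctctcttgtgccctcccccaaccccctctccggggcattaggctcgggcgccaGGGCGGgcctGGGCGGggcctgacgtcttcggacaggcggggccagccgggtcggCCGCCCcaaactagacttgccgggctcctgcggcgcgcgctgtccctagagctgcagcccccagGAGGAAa
Lamb1: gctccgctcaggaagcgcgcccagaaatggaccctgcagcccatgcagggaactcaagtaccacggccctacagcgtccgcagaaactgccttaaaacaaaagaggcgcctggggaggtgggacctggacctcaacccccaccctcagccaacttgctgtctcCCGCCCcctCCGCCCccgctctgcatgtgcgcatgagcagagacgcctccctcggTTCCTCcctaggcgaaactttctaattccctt
Itga1: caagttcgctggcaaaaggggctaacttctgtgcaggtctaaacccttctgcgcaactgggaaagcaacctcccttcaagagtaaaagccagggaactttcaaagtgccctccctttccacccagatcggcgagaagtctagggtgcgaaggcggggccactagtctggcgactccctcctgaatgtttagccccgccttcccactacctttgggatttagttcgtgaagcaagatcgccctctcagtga
They lie at chr3:65530334-65530583 (minus strand) for Itgb6, chr1:192149799-192150048 (plus strand) for Itgax, chr17:80410634-80410883 (minus strand) for Itga8, chr3:187695975-187696224 (minus strand) for Lama5, chr6:53562846-53563095 (plus strand) for Lamb1 and chr2:48545284-48545533 (minus strand) for Itga1. The AP-1 letters occur once, in Itgax, starting 56 bases before the start, and 6.36% of all 27457 promoters hold them. The PU.1 letters occur in Itgb6, Lama5 and Lamb1 among those shown and in 12 of the 29 member promoters, beside 23.2% of all promoters. Lama5 holds 4 matches to the Sp1 letters and Lamb1 holds 2, letters that 14 of the 29 member promoters and 32.4% of all promoters contain. The TEAD letters are in 6 of the 29 and in 11.8% of all. The windows of Itga8, which rose, and Itga1, which fell, hold none of the 4 motifs.

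The epithelial integrins that could be tested rose in cirrhosis, where 13.4% of all genes passed as higher. These were Itgb6, Itgb4, Itga3 and Itga6, 4 of 5 in the list, with a median log2FC of 1.95, and the fifth, Itga2, a collagen receptor subunit, had at most 5 reads in any liver. Values below are listed in the order of the replicate numbers. Itgb6, which pairs with αv on epithelia and activates latent TGF-β, was measured at 0.784, 0.0578, 0.366 and 0.509 FPM in the controls, 4.94, 6.28, 5.18, 4.46 and 4.29 FPM in cirrhosis and 3.99, 1.06, 6.27, 1.58 and 4.10 FPM in cirrhosis & eplerenone. Every CCl4-treated liver lay above every control, and cirrhosis & eplerenone replicates 2 and 4 were the lowest of the treated rats. The log2FC of cirrhosis against control was 3.54 ± 0.59, FDR 0.00182, an 11.6-fold difference, and 2.98 ± 0.59, FDR 0.0106 for cirrhosis & eplerenone.

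Itgb4, the β subunit that anchors epithelial cells to laminin in hemidesmosomes, stood at 2.05, 3.01, 1.47 and 3.75 FPM in the controls, 14.4, 11.8, 15.2, 11.7 and 8.09 FPM in cirrhosis and 9.25, 4.19, 13.4, 3.33 and 9.02 FPM in cirrhosis & eplerenone. No cirrhosis value overlapped a control, while 1 eplerenone value, replicate 4, lay within the control range. Its log2FC was 2.25 ± 0.40, FDR 0.00262 in cirrhosis and 1.61 ± 0.40, FDR 0.0289 with eplerenone. The eplerenone call held in 7 of 14 fits with 1 library left out, and without both outlying livers the log2FC was 1.33 ± 0.37, FDR 0.0561. Its partner Itga6 had 12.9, 9.25, 7.57 and 7.19 FPM in the controls, 17.1, 25.3, 15.3, 23.2 and 23.3 FPM in cirrhosis and 17.7, 14, 20.5, 10.8 and 12.8 FPM in cirrhosis & eplerenone. The cirrhosis values were all above the controls, and cirrhosis & eplerenone replicates 4 and 5 fell below the highest control. Itga6 rose in cirrhosis at a log2FC of 1.17 ± 0.24, FDR 0.00525, and its log2FC of 0.72 ± 0.24, FDR 0.0957 with eplerenone did not pass with edgeR, while DESeq2 called it (adjusted p = 0.0443). Itga3, which forms a laminin receptor with β1, had 2.29, 3.76, 2.5 and 1.84 FPM in the controls, 8.76, 9.38, 7.98, 9.64 and 5.18 FPM in cirrhosis and 5.88, 4.0, 9.84, 3.89 and 6.78 FPM in cirrhosis & eplerenone. Neither CCl4-treated group overlapped the controls, at a log2FC of 1.65 ± 0.32, FDR 0.00396 and 1.22 ± 0.32, FDR 0.0374 respectively. Its eplerenone call also held in 7 of 14 such fits, and without both livers the log2FC was 0.98 ± 0.27, FDR 0.0569.

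Markers of ductular epithelium rose in cirrhosis as well. All 5 ductular markers tested (Epcam, Krt7, Krt19, Sox9 and Cldn4) rose in cirrhosis, and the list, genes below the filter included, was summed per liver. This sum ranged from 12.6 to 18.9 FPM in controls, from 38.9 to 92.8 FPM in cirrhosis and from 33.7 to 81.2 FPM in cirrhosis & eplerenone. In cirrhosis replicate 5 the ductular sum was 38.9 FPM, against 84.25 to 92.8 FPM in its group mates. The sum of the epithelial integrins, Itga2 included, was 40.8 FPM in that liver, against 43.6 to 52.8 FPM in its group mates. Itga6 was the largest part of this sum and had its lowest cirrhosis value, 15.3 FPM, in another liver. Itgb6, Itgb4 and Itga3 were each lowest of the group in cirrhosis replicate 5, at 4.29, 8.09 and 5.18 FPM. The part of the ductular cells in the rise of the epithelial integrins was not tested.

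**Figure D2:**
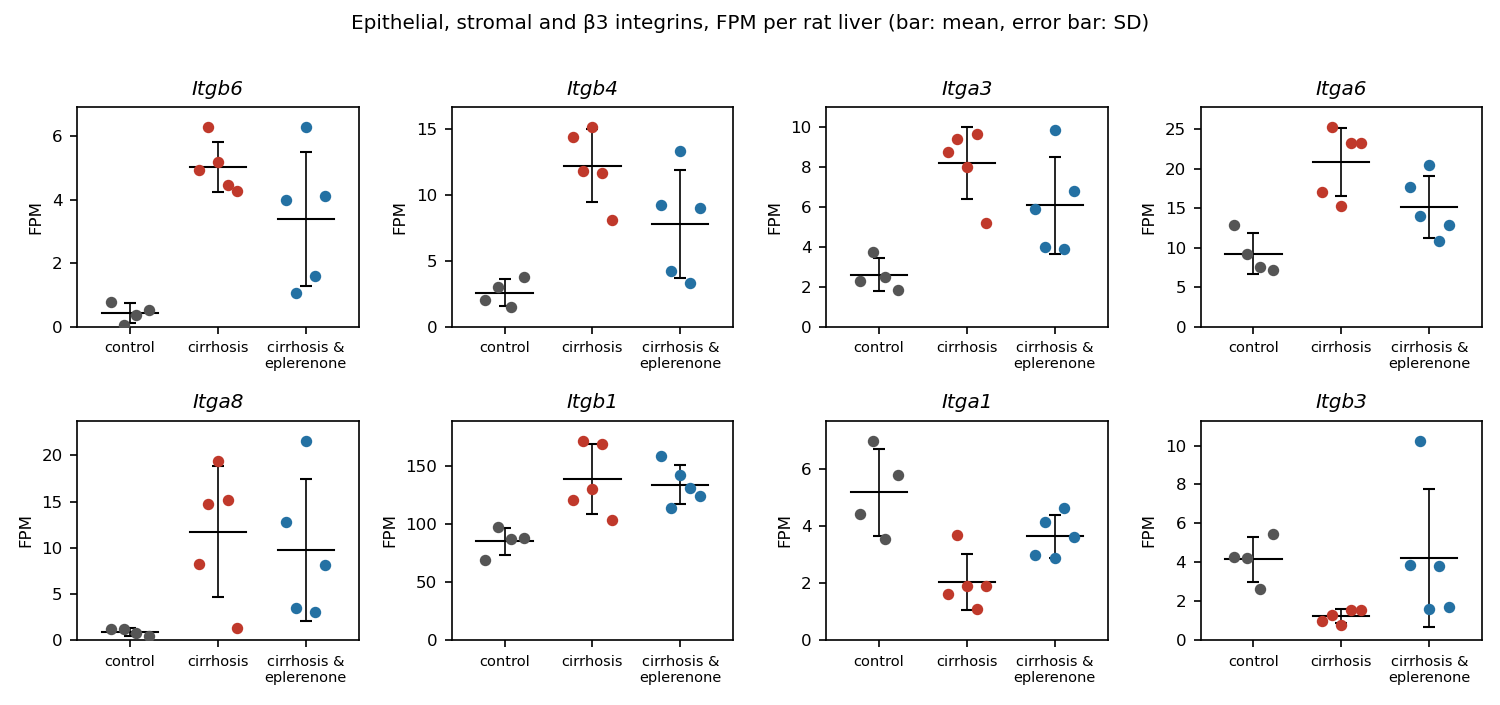
FPM (y axis) of 8 epithelial, stromal and β3 integrin subunits in each liver (points) by group (x axis), with the mean (horizontal bar) and SD (error bar). Itgb6 lies between 4.29 and 6.28 FPM in cirrhosis and at most at 0.784 FPM in controls, whereas Itgb3 lies at 0.755 to 1.55 FPM in cirrhosis and at 2.62 to 5.47 FPM in controls.

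Stromal and widely expressed integrins split in direction. Of 7 tested, Itga8 and Itgb1 rose, Itga1 fell and 4 did not pass, beside 20.2% of all genes that passed. The median log2FC of the 7 was -0.07, a median that turned to 0.21 when libraries were scaled by total counts. Itga8, a β1 partner found on stellate cells and other mesenchyme, gave the largest log2FC of all members. Its values were 1.21, 1.21, 0.733 and 0.382 FPM in the controls, 8.21, 14.7, 19.4, 15.1 and 1.25 FPM in cirrhosis and 12.7, 3.44, 21.6, 2.99 and 8.14 FPM in cirrhosis & eplerenone. All CCl4-treated livers were above the controls, but cirrhosis replicate 5 exceeded the highest control only narrowly. The log2FC was 3.72 ± 0.76, FDR 0.00517 in cirrhosis, 13.2-fold, and 3.46 ± 0.76, FDR 0.0163 in cirrhosis & eplerenone. Itgb1, the partner shared by most of the α subunits named here, stood at 69.3, 97.1, 87.1 and 87.6 FPM in the controls, 121, 172, 130, 169 and 104 FPM in cirrhosis and 158, 114, 142, 131 and 124 FPM in cirrhosis & eplerenone. Neither treated group overlapped the controls. The log2FC was 0.71 ± 0.18, FDR 0.0166 in cirrhosis and 0.65 ± 0.18, FDR 0.0512 in cirrhosis & eplerenone, the latter past the threshold in 4 of 14 fits with 1 library left out and with DESeq2 (adjusted p = 0.00838).

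Itga1, a β1 partner that binds collagen IV and laminin, had 4.40, 7.00, 3.54 and 5.79 FPM in the controls, 1.61, 3.67, 1.89, 1.08 and 1.90 FPM in cirrhosis and 2.96, 4.13, 2.87, 4.63 and 3.61 FPM in cirrhosis & eplerenone. Cirrhosis replicate 2 was the only cirrhosis liver to reach the control range, and 3 of 5 eplerenone livers lay within it. Itga1 fell in cirrhosis at a log2FC of -1.34 ± 0.34, FDR 0.0142, a 2.54-fold lower level, and its log2FC of -0.51 ± 0.33, FDR 0.431 in cirrhosis & eplerenone did not pass. Itgav, which encodes αv, the only partner of β6, was at 4.83, 4.28, 6.35 and 4.07 FPM in the controls, 1.77, 3.22, 1.62, 2.51 and 2.20 FPM in cirrhosis and 5.42, 6.88, 4.25, 2.77 and 1.26 FPM in cirrhosis & eplerenone. Its cirrhosis values were all below the controls, but the log2FC of -1.1 ± 0.39, FDR 0.0585 missed the threshold of edgeR, while DESeq2 called it lower at an adjusted p of 0.0334. The other members of the list that were tested, the fibronectin receptor subunit Itga5, the laminin receptor subunit Itga7 and Itga9, had log2FC of -0.07, -0.62 and 0.25 in cirrhosis, none past the threshold. Without both outlying livers Itga7 was called lower in cirrhosis, at -1.06 ± 0.31, FDR 0.0183. Of 6 stellate and myofibroblast markers, 4 (Acta2, Des, Col1a1 and Tagln) rose in cirrhosis, as Itga8 did. The other two did not pass, Pdgfrb at a log2FC of 0.65 ± 0.26, FDR 0.0814 and Lrat, a gene of retinoid-storing stellate cells, at -1.09 ± 0.49, FDR 0.118. Lrat averaged 16.9 ± 3.35 FPM (SD, n = 4) in controls, 7.93 ± 5.43 FPM (n = 5) in cirrhosis and 24.4 ± 13.7 FPM (n = 5) in cirrhosis & eplerenone. The sum of the 6 was 51.0 to 85.0 FPM in controls, 73.3 to 266.5 FPM in cirrhosis and 114.7 to 233.4 FPM in cirrhosis & eplerenone, with no marker at 0 in any liver. The part of these cells was not tested.

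Itgb3 was the member with the largest fall. The β3 subunit forms the vitronectin receptor with αv and the fibrinogen receptor of platelets with αIIb, which Itga2b encodes. Itgb3 had 4.28, 4.22, 2.62 and 5.47 FPM in the controls, 0.998, 1.31, 0.755, 1.54 and 1.55 FPM in cirrhosis and 3.83, 10.3, 1.58, 3.78 and 1.69 FPM in cirrhosis & eplerenone. All 5 cirrhosis livers were below all controls, and all 5 eplerenone livers were above all cirrhosis livers, replicate 3 by the smallest margin. Its log2FC in cirrhosis was -1.75 ± 0.49, FDR 0.0228, a 3.36-fold lower level, and 0.02 ± 0.47, FDR 0.986 in cirrhosis & eplerenone. When each library was left out in turn, the call in cirrhosis held in 10 of 14 fits. Itga2b stood at 26.1, 23.0, 22.1 and 20.8 FPM in the controls, 21.9, 10.1, 24.5, 8.72 and 19.1 FPM in cirrhosis and 5.72, 19.0, 7.12, 18.3 and 16.7 FPM in cirrhosis & eplerenone. Its eplerenone values were all below the controls, at a log2FC of -0.79 ± 0.37, FDR 0.240, and cirrhosis overlapped them at -0.45 ± 0.37, FDR 0.377, neither past the threshold. Of the 5 platelet markers, Itga2b itself among them, Gp1bb was at 0 in all 14 livers, Ppbp in 4 and Gp9 in 2, and Pf4 rose in cirrhosis at a log2FC of 4.24. The sum of the list ranged from 21.2 to 26.7 FPM in controls, from 18.6 to 44.8 FPM in cirrhosis and from 10.3 to 24.7 FPM in cirrhosis & eplerenone.

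Among 7 leukocyte integrins tested, Itgax and Itgb7 alone passed as higher in cirrhosis, beside 13.4% of all genes higher and 20.2% in either direction. All 7 had a positive log2FC there. In cirrhosis & eplerenone Itgax alone passed, beside 5.22% of all genes. DESeq2 also called Itgam (adjusted p = 0.0374) and Itgae (adjusted p = 0.026) higher in cirrhosis. The list median was 0.75 in cirrhosis and 0.80 in cirrhosis & eplerenone. Itgax, the CD11c subunit of macrophages and dendritic cells, had 1.39, 0.636, 1.1 and 0.572 FPM in the controls, 7.77, 8.45, 9.28, 11.4 and 3.15 FPM in cirrhosis and 3.27, 3.0, 11.1, 2.94 and 5.85 FPM in cirrhosis & eplerenone. Both CCl4-treated groups lay above all controls. The log2FC was 3.11 ± 0.51, FDR 0.00164 in cirrhosis, 8.62-fold, and 2.5 ± 0.50, FDR 0.0114 with eplerenone. Itgam, the CD11b subunit of neutrophils and monocytes, was measured at 2.59, 1.79, 3.05 and 1.84 FPM in the controls, 6.21, 6.04, 3.94, 5.13 and 1.96 FPM in cirrhosis and 3.37, 3.25, 7.37, 2.48 and 3.44 FPM in cirrhosis & eplerenone. Cirrhosis replicate 5 and eplerenone replicate 4 lay within the control range, the other treated livers above it, and neither the log2FC of 1.00 ± 0.39, FDR 0.0739 in cirrhosis nor that of 0.78 ± 0.38, FDR 0.268 with eplerenone passed. Without both outlying livers Itgam was called in cirrhosis, at 1.22 ± 0.27, FDR 0.00446. Itgal, the α subunit of LFA-1 on lymphocytes, showed 8.02, 7.00, 8.79 and 7.57 FPM in the controls, 6.88, 9.47, 6.63, 16.1 and 10.5 FPM in cirrhosis and 9.86, 6.57, 19.9, 17 and 10.6 FPM in cirrhosis & eplerenone. All groups overlapped, at a log2FC of 0.34 ± 0.32, FDR 0.444 and 0.70 ± 0.32, FDR 0.226.

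Itgb2, the CD18 chain that Itgal, Itgam and Itgax share, had 12.1, 7.92, 12.9 and 10.3 FPM in the controls, 11.3, 14.5, 11.5, 22.3 and 11.2 FPM in cirrhosis and 18.4, 10.0, 22.9, 19.6 and 22.9 FPM in cirrhosis & eplerenone. The groups overlapped, although 4 of 5 eplerenone livers were above every control, and the log2FC of 0.39 ± 0.27, FDR 0.298 in cirrhosis and 0.80 ± 0.27, FDR 0.102 with eplerenone did not pass. Itgb7, the partner of α4 and αE on gut-homing and intraepithelial lymphocytes, had 0.724, 0.636, 0.671 and 0.763 FPM in the controls, 3.11, 2.12, 3.34, 2.26 and 0.417 FPM in cirrhosis and 2.04, 1.13, 2.06, 1.35 and 1.97 FPM in cirrhosis & eplerenone. Cirrhosis replicate 5 was below all controls and the remaining treated livers were above them. The log2FC was 1.68 ± 0.48, FDR 0.0249 in cirrhosis, a call that held in 8 of 14 fits with 1 library left out, and 1.29 ± 0.48, FDR 0.133 with eplerenone. Itgae, the αE chain that binds E-cadherin, stood at 6.03, 4.45, 8.24 and 3.62 FPM in the controls, 12.2, 9.55, 11, 6.31 and 7.80 FPM in cirrhosis and 5.72, 3.69, 5.75, 5.02 and 5.85 FPM in cirrhosis & eplerenone. Its eplerenone values were all below its cirrhosis values, and the log2FC of cirrhosis against control, 0.75 ± 0.27, FDR 0.0639, was not past the threshold, but passed without both outlying livers, at 0.83 ± 0.29, FDR 0.0410. Itga4, the α4 chain of lymphocytes and monocytes, was close to the counting floor at 0.0603, 0.231, 0.305 and 0.445 FPM in the controls, 0.166, 0.653, 0.378, 0.615 and 0.357 FPM in cirrhosis and 0.409, 1.00, 1.21, 0.564 and 0.219 FPM in cirrhosis & eplerenone. Its groups overlapped, at a log2FC of 0.74 ± 0.65, FDR 0.416 in cirrhosis and 1.38 ± 0.65, FDR 0.245 with eplerenone.

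Some markers of leukocytes rose in cirrhosis and others did not. The pan-leukocyte gene Ptprc rose in cirrhosis at a log2FC of 1.01 ± 0.29, FDR 0.0277, from 4.45 to 11.9 FPM in controls to 13.2 to 17.9 FPM in cirrhosis, and stood at 11 to 27.1 FPM in cirrhosis & eplerenone. All 3 neutrophil markers tested rose in cirrhosis, the list summing to 0.572 to 1.51 FPM in controls, 1.92 to 19.6 FPM in cirrhosis and 1.88 to 25.2 FPM with eplerenone, with Cxcr2 at 0 in 6 and Mpo in 7 of 14 livers. Of 7 markers of T, B and NK cells, Cd3e and Cd3d rose, and their sum was 10.6 to 17.5 FPM in controls, 14.5 to 27.5 FPM in cirrhosis and 12.6 to 29.1 FPM with eplerenone. Of 6 macrophage and monocyte markers none passed as higher by edgeR and Cd163 fell, with sums of 187.1 to 326.6 FPM, 85.1 to 307.0 FPM and 136.1 to 375.9 FPM. Their log2FC in cirrhosis was positive in 3 and negative in 3, and 2 were higher at an unadjusted p under 0.05 by edgeR. DESeq2 called 2 of the 6. Clec4f, a large part of the sum, averaged 141.9 FPM in controls and 66.5 FPM in cirrhosis, while Cd68 averaged 14.6 and 24.3 FPM. In cirrhosis replicate 5, where Itgb7 was below all controls, Ptprc at 14.3 FPM and the neutrophil sum at 8.87 FPM were above all controls. The part of cell numbers in the rise of Itgax was not tested.

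**Figure D3:**
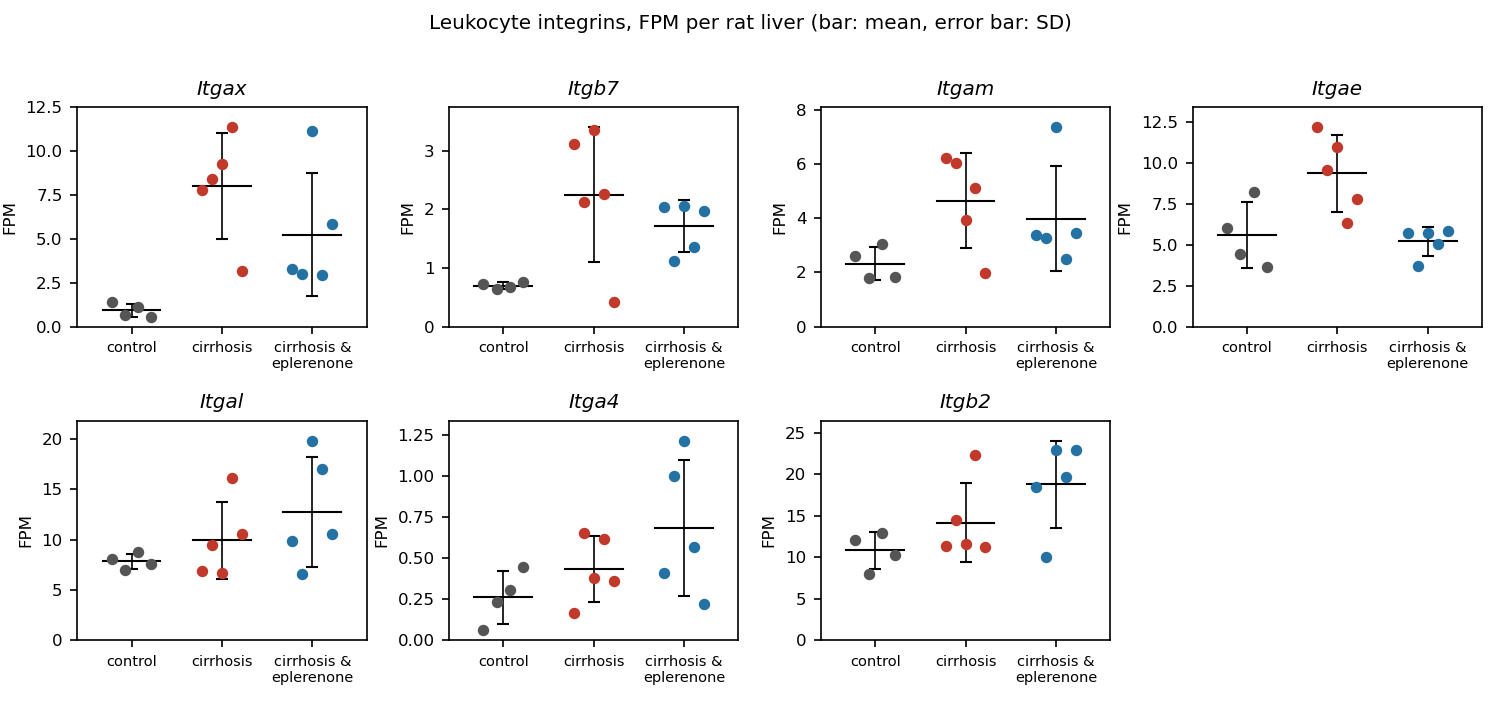
FPM (y axis) of the 7 leukocyte integrin subunits in each liver (points) by group (x axis), with mean (horizontal bar) and SD (error bar). Itgax reaches 3.15 to 11.4 FPM in cirrhosis against 0.572 to 1.39 FPM in controls, while Itgal and Itgb2 overlap between the groups.

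Laminin α and β chains rose in part. Of 3 α chains tested Lama5 rose in cirrhosis, and of 3 β chains Lamb1 and Lamb2, while Lama2, Lama4 and Lamb3 did not pass. Over all genes, 20.2% passed, 13.4% of them as higher. The median log2FC was 0.76 for the α chains and 1.15 for the β chains, beside -0.01 for all genes. Lama5, the α chain of many epithelial and endothelial basement membranes, had 2.77, 2.08, 3.05 and 1.72 FPM in the controls, 23.1, 21.8, 22.4, 22.7 and 6.90 FPM in cirrhosis and 15.3, 5.07, 23.9, 5.70 and 9.23 FPM in cirrhosis & eplerenone. No CCl4-treated liver overlapped the controls, cirrhosis replicate 5 was far below its 4 group mates and eplerenone replicate 3 was highest of all. The log2FC was 3.01 ± 0.49, FDR 0.00155 in cirrhosis, 8.03-fold, and 2.30 ± 0.47, FDR 0.0135 with eplerenone. Lama4, an α chain of endothelium and muscle, was at 4.16, 4.80, 4.64 and 4.07 FPM in the controls, 9.43, 7.38, 10.4, 7.28 and 2.98 FPM in cirrhosis and 6.75, 3.94, 11.9, 5.87 and 6.23 FPM in cirrhosis & eplerenone. Cirrhosis replicate 5 was below the controls, and the log2FC of 0.76 ± 0.35, FDR 0.123 in cirrhosis and 0.65 ± 0.35, FDR 0.307 with eplerenone did not pass. Without both outlying livers Lama4 was called in cirrhosis, at 0.98 ± 0.23, FDR 0.00562. Lama2, the α chain of muscle and mesenchyme, had 2.05, 3.99, 4.15 and 2.04 FPM in the controls, 3.55, 4.82, 5.23, 3.85 and 2.98 FPM in cirrhosis and 6.64, 4.82, 7.93, 2.65 and 4.81 FPM in cirrhosis & eplerenone. The groups overlapped at a log2FC of 0.42 ± 0.34, FDR 0.377 and 0.81 ± 0.34, FDR 0.186.

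Of the β chains, Lamb1, the most widespread, stood at 3.44, 6.76, 7.20 and 5.41 FPM in the controls, 22.7, 32.3, 26.1, 26.4 and 9.34 FPM in cirrhosis and 16.6, 12.1, 31.4, 11.3 and 15.4 FPM in cirrhosis & eplerenone. Both treated groups were above all controls, at a log2FC of 2.03 ± 0.38, FDR 0.00296 in cirrhosis and 1.61 ± 0.37, FDR 0.0211 with eplerenone. Lamb2, the β chain of vascular and neuromuscular basement membranes, had 18.1, 11.1, 14.5 and 12.6 FPM in the controls, 38.1, 35.5, 38.7, 29.6 and 14.6 FPM in cirrhosis and 25.6, 16.5, 40.7, 15.8 and 22.6 FPM in cirrhosis & eplerenone. Cirrhosis replicate 5 and eplerenone replicates 2 and 4 lay within the control range. Lamb2 rose in cirrhosis at 1.15 ± 0.31, FDR 0.0201 and gave 0.78 ± 0.31, FDR 0.158 with eplerenone, the latter not past the threshold. Lamb3, a β chain of epithelial basement membranes, had 1.27, 2.02, 2.20 and 5.09 FPM in the controls, 5.44, 2.53, 5.12, 2.87 and 2.14 FPM in cirrhosis and 1.74, 3.0, 2.91, 1.64 and 1.86 FPM in cirrhosis & eplerenone. All groups overlapped, with a log2FC of 0.45 ± 0.42, FDR 0.436 in cirrhosis and -0.24 ± 0.42, FDR 0.816 with eplerenone.

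Lamc1, the γ chain of most laminins, had 9.35, 17.2, 11.8 and 17.7 FPM in the controls, 12.0, 18.8, 15.2, 12.8 and 7.68 FPM in cirrhosis and 18.4, 14.3, 15.1, 13.7 and 15.2 FPM in cirrhosis & eplerenone. Its groups overlapped, and the log2FC was -0.07 ± 0.25, FDR 0.840 in cirrhosis and 0.13 ± 0.25, FDR 0.836 with eplerenone. Whether the change of one chain differed from that of another was not tested. Of 5 endothelial markers, which mark cells that make several of these chains, Vwf rose in cirrhosis at a log2FC of 2.69 ± 0.54, FDR 0.00439 and Kdr fell at -1.1 ± 0.24, FDR 0.00754. The sum of the 5 was 151.9 to 180.2 FPM in controls, 104.4 to 255.2 FPM in cirrhosis and 139.1 to 183.2 FPM in cirrhosis & eplerenone, with no marker at 0 in any liver. The part of endothelial, ductular and stellate cells in the laminin values was not tested.

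**Figure D4:**
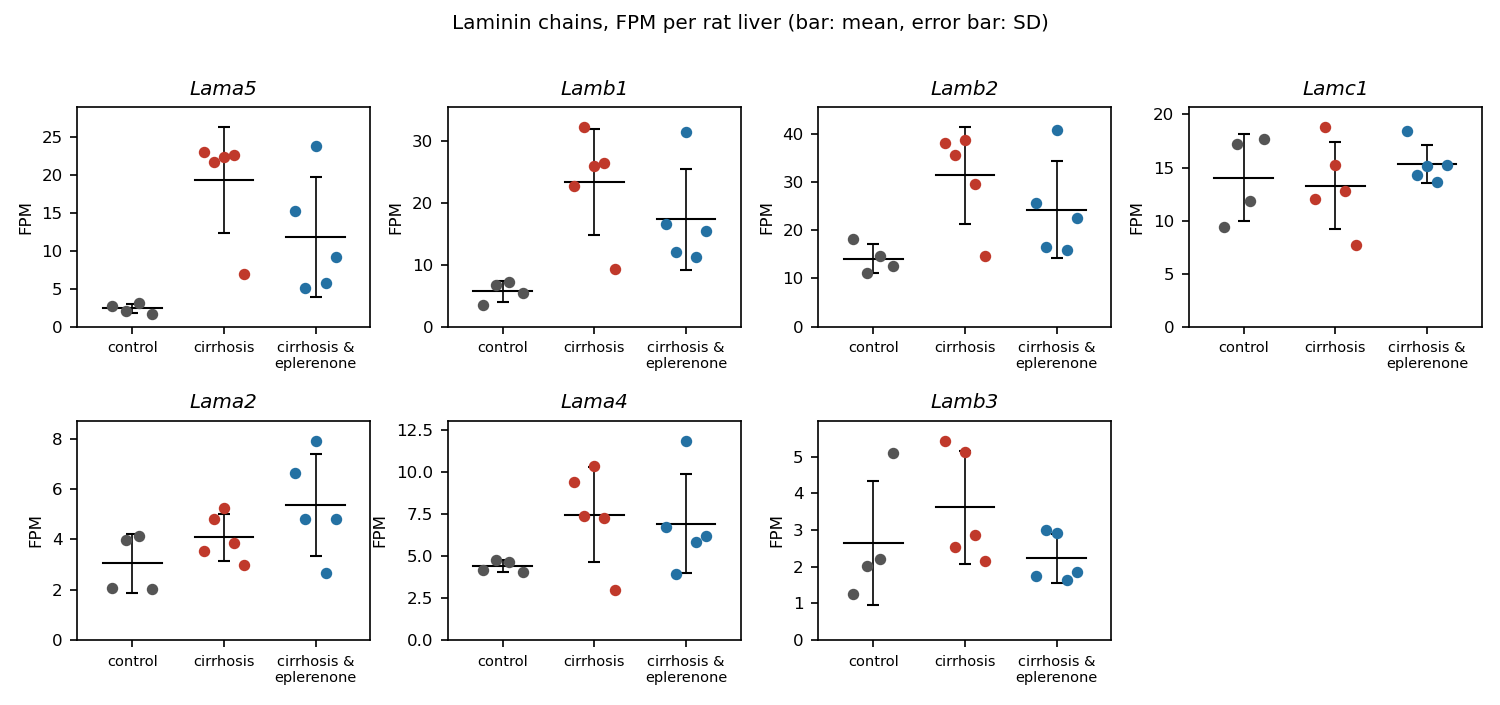
FPM (y axis) of laminin chains past the filter in each liver (points) by group (x axis), with mean (horizontal bar) and SD (error bar). Cirrhosis replicates 1 to 4 lie at 21.8 to 23.1 FPM for Lama5 and replicate 5 at 6.90 FPM, with controls at 1.72 to 3.05 FPM, whereas Lamc1 overlaps in all 3 groups.

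Cirrhosis replicate 5 and cirrhosis & eplerenone replicate 3 lay at opposite ends of their groups in most of these genes. Of the 13 members that rose in cirrhosis, replicate 5 was the lowest cirrhosis liver in 12, all but Itga6, and exceeded all controls in 11. The 13 were picked from these same livers, and such a count over all genes was not made. Cirrhosis & eplerenone replicate 3 was the highest of its group in 12, all but Itgb1. In cirrhosis replicate 5 the hepatocyte markers, mostly Alb, summed to 139200 FPM, the highest of its group, and the ductular and stellate markers to 38.9 and 73.3 FPM, the lowest. In cirrhosis & eplerenone replicate 3 the hepatocyte sum was the lowest of its group at 72160 FPM and the ductular and stellate sums were the highest at 81.2 and 233.4 FPM. Without cirrhosis replicate 5 the number of members called between cirrhosis and control was 19, of which 16 were higher and 3 lower, and 4612 genes were called in all. Without both of these livers it was 19 as well, beside 34.2% of all genes, and between cirrhosis & eplerenone and control it was 6, beside 4.87%.

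Eplerenone was tested directly by comparing both CCl4-treated groups. None of the 31 members passed an FDR of 0.05 by edgeR, 6 had an unadjusted p under 0.05 beside 14.4% of all genes, and DESeq2 called 1, Itgb3, at an adjusted p of 0.0458, beside 0.513% of all genes. The median log2FC of the members was -0.34, beside 0.01 for all genes. Higher with eplerenone were Itgb3 at 1.77 ± 0.47 (unadjusted p = 0.00171, FDR 0.312 by edgeR), Itga9 at 1.01, Itgav at 0.85 and Itga1 at 0.83. Lower was, for example, Itgae at -0.85 ± 0.26 (unadjusted p = 0.00456 by edgeR). Of the 31 members, only Itgb3 and Itgae had no overlap between these groups, beside 0.964% of all genes. Without cirrhosis & eplerenone replicate 2, the highest at 10.3 FPM, the log2FC of Itgb3 was 1.14. Of the members that rose in cirrhosis, Itgb3bp had a log2FC of -0.79, Lama5 of -0.71, Itgb4 of -0.64 and Itgb1 of -0.05, none past the threshold.

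The count depended on both of the livers that stood apart. With cirrhosis replicate 5 and cirrhosis & eplerenone replicate 3 left out together, 8 members passed between cirrhosis & eplerenone and cirrhosis, 2 higher and 6 lower, beside 9.16% of all 14126 genes then tested. Since both were singled out by their place among the samples, their omission widens the difference by construction. The higher members were Itgb3 at 2.05 (FDR 0.0264) and Itga7 at 1.09 (FDR 0.0451). Among the lower ones were Itgb3bp at -1.54 (FDR 0.0299), Lama5 at -1.36 (FDR 0.0231), Itgax at -1.31 (FDR 0.0283), Lamb1 at -0.97 (FDR 0.0251) and Lamb2 at -0.84 (FDR 0.0266). Leaving out either of these livers alone left 0 members called. In all, 26 genes were called without cirrhosis replicate 5 and 2 without cirrhosis & eplerenone replicate 3. The plot of eplerenone log2FC shows both sets of values side by side.

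**Figure D5:**
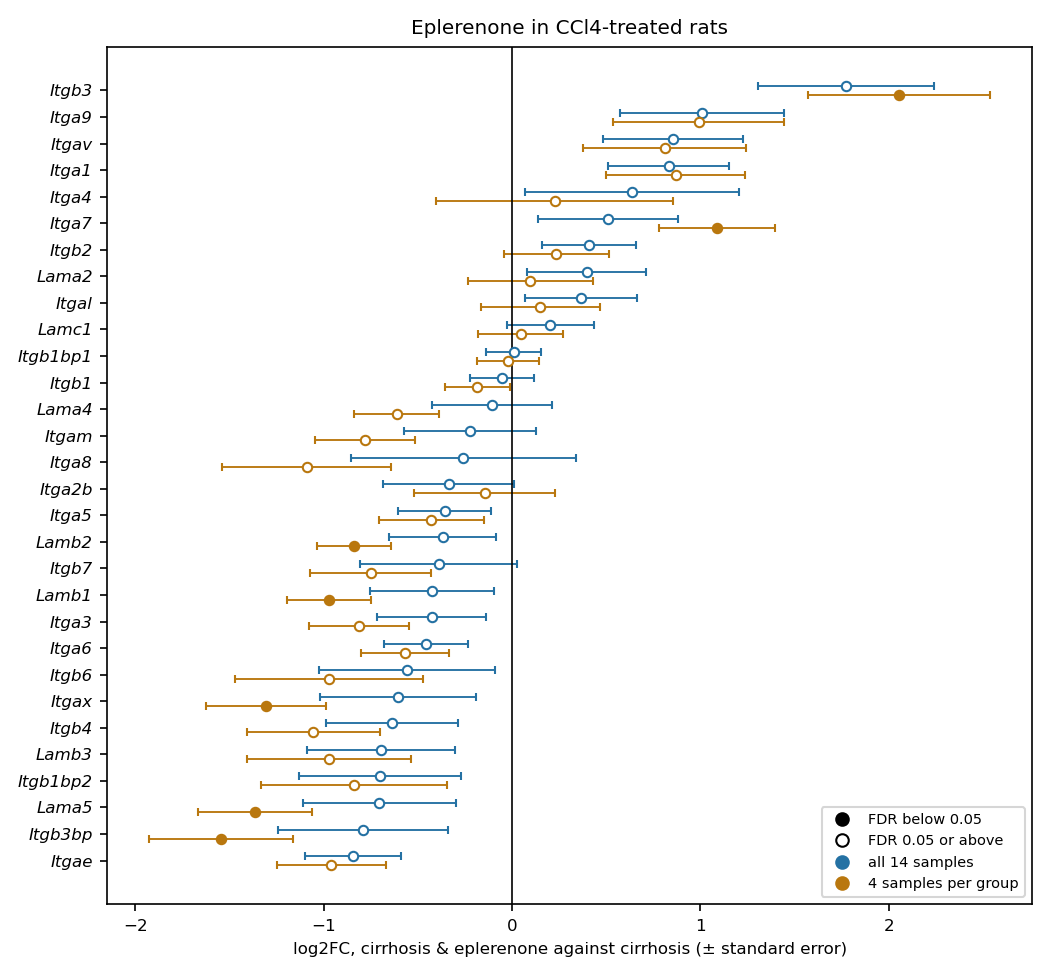
The x axis gives log2FC of cirrhosis & eplerenone against cirrhosis with its standard error (bars) for members past the filter, in blue for all 14 samples and in brown for 4 samples per group, and filled points passed an FDR of 0.05. No blue point is filled, and the filled brown points run from Itgb3 at 2.05 to Itgb3bp at -1.54.

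Label prefixes 15 and 20 occur in both CCl4-treated groups, with 3 cirrhosis and 2 eplerenone livers of prefix 15 and 2 and 3 of prefix 20. No member passed an FDR of 0.05 within either prefix, nor with prefix as a term in the model. Over all genes, 87 passed within prefix 15, 0 within prefix 20 and 2 with prefix as a term. The log2FC of eplerenone against cirrhosis in Lama5 was -1.13 within prefix 15 and -0.18 within prefix 20. In the same order, Itgax had -1.43 and -0.12. The log2FC of Itgb3 was 2.78 within prefix 15 and 0.62 within prefix 20. Lamb1 had -0.91 within prefix 15 and 0.13 within prefix 20. Both outlying livers, cirrhosis replicate 5 and cirrhosis & eplerenone replicate 3, carry prefix 20, so prefix and these livers cannot be told apart here. The difference between prefixes was not tested.

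Compared with control, cirrhosis & eplerenone passed the threshold in 8 members, among them Itga8, Itgb6, Itgax, Lama5, Itgb4, Lamb1 and Itga3. This comparison shares its samples with the other 2. Its count fell to 1 without control replicate 5, where 221 genes were called in all, beside 753 with every library. It fell to 5 without control replicate 2, control replicate 4 or cirrhosis & eplerenone replicate 3. In that order, 417, 415 and 378 genes were then called in all. The study defined eplerenone sensitive genes as differentially expressed by both edgeR and DESeq2 in cirrhosis, with an absolute log2FC of at least 1. Such genes were also not differentially expressed between cirrhosis & eplerenone and control, where their absolute log2FC did not exceed 1. By these criteria 5 of 14 cirrhosis sensitive members were eplerenone sensitive (Itga1, Itga6, Itgb3, Itgb3bp and Lamb2), or 35.7%, beside 666 of 2024 protein coding genes, or 32.9%. In the study's own fit more of the cirrhosis sensitive genes were eplerenone sensitive than not, a larger share than found here. The criteria hold no direct test of eplerenone against cirrhosis.

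Genes that act with integrins and laminins moved in both directions. Over all genes, 20.2% passed in cirrhosis against control, the share beside which the 3 lists below stand. Of 20 adaptors and kinases at integrin tails, 7 passed in cirrhosis, at a list median log2FC of 0.12. Higher were Ptk2b, a focal adhesion kinase relative, at 1.92 ± 0.32, FDR 0.00181, and Parvg, a parvin of blood cells, at 1.58 ± 0.48, FDR 0.0314, along with Parvb, Zyx and Tns3, and lower were Fermt2, the kindlin that activates integrins outside blood cells, at -0.77 ± 0.22, FDR 0.0238, and Bcar1. Of 12 ligands tested, 4 passed. Spp1, the RGD ligand osteopontin, rose at 3.01 ± 0.66, FDR 0.00716 and Icam1, the ligand of the β2 integrins, at 0.92 ± 0.17, FDR 0.00327, while fibronectin (Fn1) fell at -0.62 ± 0.20, FDR 0.0425 and Fga, a fibrinogen chain, at -0.79 ± 0.24, FDR 0.0326. Of 7 basement membrane partners, Col4a1 at 1.25 ± 0.31, FDR 0.0134, Nid1 at 0.90 ± 0.27, FDR 0.0302 and the laminin α5 receptor Bcam at 1.5 ± 0.45, FDR 0.0305 rose, and none fell. No gene of these 3 lists passed between cirrhosis & eplerenone and cirrhosis by edgeR or by DESeq2. In this comparison 3 adaptors, 0 ligands and 1 basement membrane gene had an unadjusted p under 0.05, beside 14.4% of all genes. Against control, cirrhosis & eplerenone passed in 3 adaptors (Parvg, Ptk2b and Tns3), 1 ligand (Icam1) and 3 basement membrane genes (Nid1, Col4a1 and Col4a2). Over all genes, 5.22% passed in that comparison.

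Of the 3 integrin-binding proteins, Itgb3bp, a centromere protein, rose in cirrhosis. It had 1.27, 0.752, 0.855 and 1.46 FPM in the controls, 4.77, 3.22, 2.86, 3.90 and 1.61 FPM in cirrhosis and 1.79, 0.563, 4.29, 1.47 and 1.26 FPM in cirrhosis & eplerenone. Cirrhosis lay above the controls in all 5 livers and eplerenone overlapped them, at a log2FC of 1.59 ± 0.51, FDR 0.0391 in cirrhosis, a call that held in 6 of 14 fits with 1 library left out, and 0.80 ± 0.50, FDR 0.404 with eplerenone. Itgb1bp1 and Itgb1bp2, which bind the β1 tail, had a log2FC of 0.03 and 0.42 in cirrhosis, neither past the threshold. The 6 members below the filter were Itga2, Itga10, Itga11, Itgb8, Lama1 and Lamc3. Their highest count in any liver was 5 for Itga2, 8 for Itga10, 22 for Itga11, 14 for Itgb8, 12 for Lama1 and 7 for Lamc3. With no filter on low counts, 15 of all 37 members were called in cirrhosis against control, the same number as with the filter. In that fit 2609 genes were called in all.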

How the data were processed

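Poly(A) RNA of rat liver was read over 150 bp from both ends, and the authors mapped the reads with HISAT2 2.1.0 to rn6 and summed them over the exons of each gene with featureCounts, a read with several matches being counted at each of them. The strand setting is not given in the sources used here, so overlapping and antisense genes may share reads. The authors deposited raw counts per gene, without normalization or filter, with gene symbol, chromosome and biotype. All per-sample columns were mapped to a labelled sample (0 not mapped). Each sample is 1 rat, and groups follow the treatment labels.

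Counts were filtered with filterByExpr at a smallest count of 10 and scaled by TMM, and all 14 samples in 3 groups were fitted in 1 model with the quasi-likelihood test of edgeR 4.0.16 in R 4.3.3. The Benjamini-Hochberg adjustment ran over the whole set of tested genes, with an FDR threshold of 0.05. Standard errors are the log2FC divided by the square root of the quasi-likelihood F. Depth was 16157491 to 21574767 counted reads, and intervals for counting error are not given since the spread between rats is larger. Members were named, with their value in every sample, where they passed in any comparison, for every leukocyte integrin and laminin chain past the filter, and for partners of a named chain. Other genes come from written lists. Counts cover all members and list genes, of which some are not reported here by name. The members and lists were chosen with earlier results of these data known. Levels were not divided by gene length and are not compared between genes. The promoter sequences are those of RefSeq on GRCr8.

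Alternatives were DESeq2 1.42.0, size factors or total counts in place of TMM, no filter, each library or both outlying livers left out, only the groups compared, the replicate number as a block and the label prefix. The steps were tested on simulated data. Samples with equal values were looked for, and no pair within a group agreed within sampling noise.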

Additional observations from a re-analysis of the deposited data

Results flagged for a closer look

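Each group of 4 or 5 livers was searched, for each member tested, for a liver whose gap to its neighbour took up most of the range of the group. Of 93 groups, 4 held one, and chance alone gives about 4.6. In cirrhosis, replicate 5 had 6.90 FPM of Lama5, where the next lowest liver had 21.8 FPM. In cirrhosis & eplerenone, replicate 3 had 31.4 FPM of Lamb1 with the next at 16.6 FPM, and 7.37 FPM of Itgam with the next at 3.44 FPM. Replicate 2 of the same group had 10.3 FPM of Itgb3 with the next at 3.83 FPM.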

How the results depend on the processing

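The number of members called in cirrhosis against control was 10 to 19 with 1 library left out. It was lowest without control replicate 3 and highest without cirrhosis replicate 5, where 1569 and 4612 genes were called in all. For cirrhosis & eplerenone against cirrhosis it was 0 to 0, beside 0 to 26 of all genes. For cirrhosis & eplerenone against control it was 1 to 10. There 221 genes were called in all at the lowest count and 1080 or 1277 at the highest. The count for cirrhosis & eplerenone against cirrhosis was 1 with DESeq2, 6 at an unadjusted p under 0.05 (an alternative added after the data had been seen) and 8 with 4 samples per group. In that order, 74, 2076 and 1294 of all genes were called. With the replicate number as a block, 4 members passed between cirrhosis & eplerenone and control, beside 270 of all genes. Itgb6, Lamb1, Itga3 and Itgb4 no longer passed there. Between cirrhosis and control 11 members passed, beside 1743 of all genes, and Itgb3bp, Itgb7, Lamb2 and Itgb1 no longer passed. The numbers give no pairing in the sources used here, and of 13 same-numbered pairs 3 correlated over 0.1 (range -0.333 to 0.187), with 2 of 13 livers closest to their own number. Scaling by total counts moved the median log2FC of all genes against control from -0.01 to 0.28 in cirrhosis. In cirrhosis & eplerenone the median moved from 0.01 to 0.32. With this scaling 16 and 11 members were called in that order, beside 3421 and 1351 of all genes. Under it the stromal median against control turned from -0.07 to 0.21 in cirrhosis and from -0.11 to 0.15 with eplerenone. Of 354 log2FC of members under the other alternatives, 0 changed sign, 12 lost and 17 gained a call, and 0 of 588 changed sign with 1 library left out. Both sets come from the 42 log2FC with an unadjusted p under 0.05 by edgeR with every library, a choice that makes a change of sign unlikely. Others did change sign, such as Lamb1 for eplerenone against cirrhosis, at -0.91 within prefix 15 and 0.13 within prefix 20. Members with few reads, such as Itga4, limit what this depth can show.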

Other observations

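Itgb5, an αv partner listed in the table as a processed transcript and so outside the members, had 11.5, 35.8, 14.8 and 33.9 FPM in control replicates 2 to 5. It ranged from 18.9 to 32.4 FPM in cirrhosis and from 15.6 to 36.1 FPM in cirrhosis & eplerenone. Its groups overlapped, and its log2FC was 0.06 ± 0.33 (FDR 0.900 by edgeR) in cirrhosis against control.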
